A study of Mus musculus with 6 samples.

Results

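GABA is made from glutamate by 2 glutamate decarboxylases, Gad1 (GAD67) and Gad2 (GAD65), and is broken down in mitochondria by the GABA transaminase Abat and the succinic semialdehyde dehydrogenase Aldh5a1. The vesicular transporter Slc32a1 loads it into vesicles, and it acts through the metabotropic GABA-B receptor, a pair of Gabbr1 and Gabbr2, and through chloride channels built from subunits such as Gabra4. Pancreatic beta cells are known for making GABA, which acts on islet cells as a local signal, and glutamate dehydrogenase (Glud1) links their glutamate to the citric acid cycle. These 9 genes were examined in islets of mice that lose Nkx6.1, a transcription factor of beta cells. They were taken as the probes that carry their names on the array, 15 of 39429 probes and 9 of 31829 gene names. Gad1 was chosen because it was lower in mutant islets, so its values are given as a description without a test.

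The mutants were Nkx6.1fl/-;Pdx1-CreERTM and the controls were their Nkx6.1fl/+;Pdx1-CreERTM littermates, all male, 6 weeks old and of a mixed strain background, the Nkx6.1-flox line being FVB/N x C57Bl/6J and the Pdx1-CreERTM line Cd1 X C57Bl/6J. Both groups received 4 injections of tamoxifen at 2 mg per 25 g body weight, beginning at 4 weeks, and both carried the floxed allele and the Pdx1-driven, tamoxifen-activated recombinase. The control genotype kept 1 wild-type allele. The mutant null allele was present before tamoxifen, and its effects cannot be told apart from those of the induced deletion. Each of the 3 RNA samples of a group pooled islets of 2 pancreata, and 150 ng of RNA was labelled with Cy3 for single-colour Agilent arrays.

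Values are normalized log2 signals, the log2 of the background-corrected spot intensity minus that of the 75th percentile of the array, so that 0 stands for that percentile. Differences are mutant minus control. A gene was tested with limma where a probe was well above background on all 3 arrays of a group, and it was called at an adjusted p under 0.05 over all genes tested. Slide 1 held mutants B and C with control A, and slide 2 held mutant A with the other two controls. Probes well above background made up 73.4% to 76.3% of a control array and 63.9% to 74.4% of a mutant array. The weakest signal on a mutant array was 7.98 for A, 6.85 for B and 2.31 for C, and at most 3.31 on the controls, which bears on the dim probes below. Of 22775 genes tested, 576 (2.53%) were called, 320 higher (1.41%) and 256 lower (1.12%). The median difference over all genes tested was -0.03. Nkx6-1 itself had a difference of -0.48 (SE 0.14, n = 3 per group) and was not called (limma, adjusted p = 0.131), and the labels do not say whether its probe lies in the deleted part.

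All 9 beta cell markers examined were tested, and Slc2a2, Slc30a8 and Ucn3 fell, against 1.12% of all genes tested. At an unadjusted p under 0.05 in limma the count was 5 of these 9 markers, against 20.2% of all genes. The mean log2 level of this list against the control mean was -0.06 to 0.11 on control arrays and -0.63 to -0.56 on mutant arrays. Its summed level, in multiples of the 75th percentile, was 757.2 to 1037 in controls and 666.8 to 1070 in mutants. The insulin genes Ins1 and Ins2, at differences of 0.26 and 0.25, were not called. Hormone probes lay close together at very bright levels, with control means of 7.83 (Ins1), 7.78 (Ins2), 7.98 (Gcg), 7.88 (Sst) and 8.13 (Ppy). No array was flagged as saturated at them, and whether their signals were compressed was not tested. The summed levels of the beta and alpha lists come mostly from such hormone genes, so they are a weak measure of cell content. The acinar list, all 8 of which were tested and none called (0 at an unadjusted p under 0.05 in limma), had mean log2 levels of -0.28 to 0.33 in controls and -0.85, 0.93 and 1.56 on mutant arrays A, B and C, and a summed level of 793.8 to 1201 in controls and 541.9 to 2704 in mutants. The neuron list, of which 5 of 6 genes were tested and none called (1 at an unadjusted p under 0.05 in limma), lay at -0.15 to 0.29 in controls and 0.18 to 0.62 in mutants, with summed levels of 6.01 to 7.45 and 6.21 to 7.77. Its member Slc17a7 did not pass the filter on dim signal. The alpha cell list, all 5 of which were tested and none called (2 at an unadjusted p under 0.05 in limma), lay at -0.32 to 0.30 in controls and 0.34 to 0.59 in mutants, with summed levels of 229.2 to 336.3 and 215.02 to 410.4. The lists of delta, PP, duct, endothelial, leukocyte, mesenchymal and Schwann cells held no called gene either, and none with such a p in limma. No defining marker can be read as 0 from array intensities. The part of these lists in the differences below was not tested. In RNA from whole islets, fewer cells of a type and less RNA per cell cannot be told apart.

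The results turn on the probes of Gad1 and Gabbr2. A stretch of the Gad1 probe is shown because it carries the largest difference among the 9 genes, and one of a Gabbr2 probe because the probes of that gene disagree. The coordinates are those of the files (mm9), no annotation of that build was used here, and sequences run 5′ to 3′ along the strand of the gene. The Gad1 probe lies at chr2:70439699-70439758 on the plus strand, and the Gabbr2 probe shown, which neighbours the brightest one, at chr4:46677030-46677089 on the minus strand. The first 30 bases of each are printed. The third Gabbr2 probe spans more of the genome than its own length, so it crosses an intron, and it is called the exon-junction probe here.
Gad1 probe: gagtgcccttaacataatgatttgaacata
Gabbr2 neighbouring probe: catccatcagaagagagatgtttgttactc

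Gad1 was lower on every mutant array than on every control array. The background-corrected signal of its single probe was 4288, 10240 and 7594 in controls A to C, against 1399, 645.8 and 434.6 in mutants A to C. The normalized log2 signal was 1.16, 2.05 and 1.55 in controls and -0.78, -1.51 and -1.90 in mutants. The groups did not overlap, and mutants lay below all controls for 14.0% of all genes tested. The gap between the lowest control and the highest mutant array was wider than the spread within either group. Both are likely in a gene chosen for its fall. The means were 1.58 ± 0.44 (SD, n = 3) and -1.40 ± 0.57 (SD, n = 3), a difference of -2.98 (SE 0.35) or 7.91-fold lower in mutants. Within slide 1 the difference was -2.87 and within slide 2 it was -2.58. Every array was well above background at this probe, mutant arrays A and B included, and without those arrays the difference was -3.49.

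Gad2 was dim on all 6 arrays. Its background-corrected signal was 5.02, 14.6 and 20.7 in controls A to C, against 9.04, 8.45 and 6.198 in mutants A to C. It was well above background on control array C alone, so it was not tested and no fold is given. Of the decarboxylases, Gad1 alone was well above background on all arrays of a group.

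The substrate enzyme Glud1 and the breakdown enzymes Abat and Aldh5a1 were well above background on all 6 arrays, and none was called. Glud1, which interconverts glutamate and 2-oxoglutarate, had normalized log2 signals of 2.99, 3.08 and 2.98 in controls and 3.00, 3.13 and 3.08 in mutants at its brighter probe. The groups overlapped, with a difference of 0.06 (SE 0.10, 95% interval -0.18 to 0.29, limma adjusted p = 0.765). Its other probe gave -0.0014.

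Abat, which converts GABA to succinic semialdehyde, had signals of 3.76, 3.72 and 3.95 in controls and 3.32, 3.42 and 3.29 in mutants. All 3 mutant arrays lay below all 3 controls, as was the case for 3178 genes (14.0% of those tested). The difference was -0.46 (SE 0.11, 95% interval -0.73 to -0.20) and was not called (limma, adjusted p = 0.0911). Over the other settings the adjusted p ran from 0.051 to 0.313. Within slides 1 and 2 the difference was -0.40 and -0.51.

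Aldh5a1, the next enzyme of the breakdown route, had signals of 1.43, 1.41 and 1.40 in controls and 1.48, 1.76 and 1.69 in mutants. Here the mutant arrays lay above the controls, mutant A by little. The difference of 0.23 (SE 0.11, 95% interval -0.04 to 0.50) was not called (limma, adjusted p = 0.318). The 2 breakdown enzymes thus had differences of opposite sign, neither of which passed.

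Slc32a1, the vesicular GABA transporter, showed no difference of stable sign. Its signals were -3.78, -3.19 and -3.02 in controls and -3.01, -3.91 and -3.48 in mutants at the probe that was tested. The groups overlapped, with a difference of -0.13 (SE 0.29, 95% interval -0.85 to 0.59, limma adjusted p = 0.828), and within slides 1 and 2 it was 0.09 and 0.10. The sign was also positive with slide as a block, with normexp correction and in the deposited equalized values. The other Slc32a1 probe did not rise well above background anywhere.

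**Figure D1:**
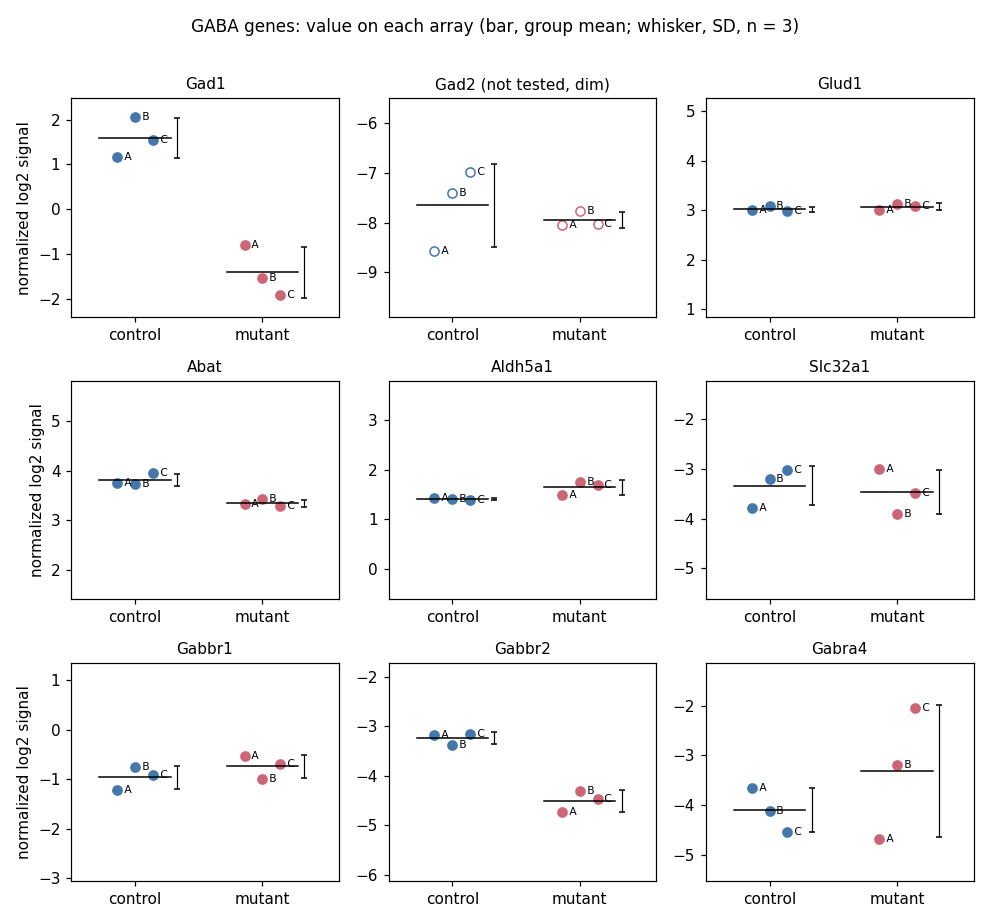
Normalized log2 signal (y axis, every panel at least 4.4 log2 units tall) of the 9 GABA genes on the 3 control and 3 mutant arrays, lettered A to C, with the group mean (bar) and SD (whisker). Open points mark Gad2, which was not tested. The groups stand apart for Gad1, with 1.16 to 2.05 in controls and -1.90 to -0.78 in mutants, and for Gabbr2, and they lie close together or overlap for the others.

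Of the 7 genes tested other than Gad1, 1 was called, Gabbr2, against 2.53% of all genes tested. At an unadjusted p under 0.05 the count was 2 of 7, Abat and Gabbr2, against 20.2% of all genes. The arrays of the groups did not overlap for 3 of the 7, against 26.3% of all genes. These counts are small, and nothing is read from them about the GABA genes together.

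Gabbr2, the subunit of the GABA-B receptor that couples to G proteins, fell at its brightest probe. The signals there were -3.18, -3.37 and -3.15 in controls and -4.74, -4.30 and -4.46 in mutants, and the groups did not overlap. The difference was -1.27 (SE 0.15, 95% interval -1.63 to -0.91), 2.41-fold lower in mutants (limma, adjusted p = 0.0212). Within slides 1 and 2 it was -1.20 and -1.48, and a block on the slide gave an adjusted p of 0.0225. Over all other settings it ran from 0.0145 to 0.92, and the difference was -0.80 with normexp correction (adjusted p = 0.0287). The call was lost without control B (adjusted p = 0.0925), control C (0.11), mutant B (0.0794) or mutant C (0.0641), at about the same difference, and it held without control A (0.0482) or mutant A (0.0408).

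The neighbouring Gabbr2 probe gave a like difference, -1.31 (SE 0.22). Its background-corrected signals were 64.1, 101.6 and 115.5 in controls and 32.2, 39.4 and 22.6 in mutants, and only mutant C of the mutant arrays was well above background. In the fit over all 28361 tested probes, in which 2.75% were called, this probe and the brightest one were called (limma, adjusted p = 0.0431 and 0.0194). The neighbouring probe lost its call in every other setting run on it (adjusted p = 0.0521 to 0.166), and its difference was -0.43 with normexp correction and -0.61 in the deposited equalized values.

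The exon-junction probe of Gabbr2 differed the other way. Its background-corrected signals were 70.4, 35.6 and 61.7 in controls A to C, against 117.5, 354.7 and 313.8 in mutants A to C. On the mutant arrays it was brighter than the probe called brightest, which had 90.1, 93.3 and 73.5 in mutants A to C. At the junction probe all mutant arrays lay above all controls, mutants B and C the most. The difference was 2.39 (SE 0.63), 5.26-fold higher in mutants, and was not called in the fit over probes (limma, adjusted p = 0.108, and 0.0449 to 0.298 over its other settings, the lowest of them without mutant A). Its size ranged from 1.54 with normexp correction and 1.64 in the deposited equalized values to 3.06 without mutant A. With the 3 probes averaged, the Gabbr2 difference was -0.06 and no call was made (limma, adjusted p = 0.92). The direction of the Gabbr2 difference depended on the probe.

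The junction probe carries a run of 11 bases of the repeat GAA. The longest such run in the other 14 probes of the 9 genes was 7 bases, in a Gabbr1 probe. Runs of 11 or more bases of this repeat, in any phase and on the strand of the probe, were searched for after the probes were seen to disagree. They occur in 98 probes of the array, of which 97 were tested, the Gabbr2 junction probe among them. The median difference of these probes was 2.11, and 70 of them (72.2%) were at least 2-fold higher in mutants, against 2.49% of all tested probes. In the fit over probes 14 of the 97 were called higher and 0 lower, against 416 higher and 363 lower of all 28361 tested probes. Their median level against the control mean was 0.94, -0.66 and -0.29 in controls A to C, against 0.88, 2.63 and 2.63 in mutants A to C, so control A stood as high as mutant A. The median of their differences was 1.29 within slide 1 and 1.54 within slide 2. The part of the repeat in the Gabbr2 value was not tested. No probe of the other pathway genes described here holds such a run (0 of 97 probes).

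**Figure D2:**
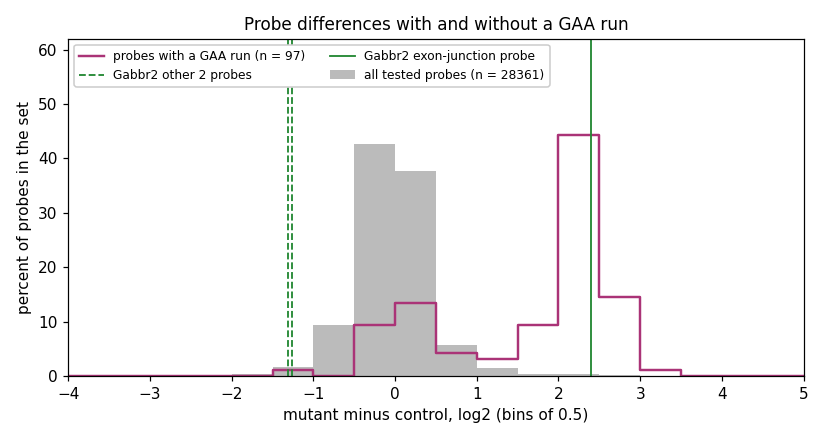
Percent of probes (y axis) in bins of 0.5 of the mutant minus control difference in log2 (x axis), for all 28361 tested probes (grey bars) and for the 97 tested probes with a GAA run (line). Vertical lines mark the Gabbr2 probes, the junction probe at 2.39 (solid) and the other 2 at -1.27 and -1.31 (dashed). The probes with the run, the junction probe among them, have a median of 2.11. Of the 97, 43 lie in the bin that starts at 2, as the junction probe does, and 13 in the bin that starts at 0.

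Gabbr1, the subunit of the GABA-B receptor that binds GABA, was not called. Its brightest probe had signals of -1.22, -0.76 and -0.91 in controls and -0.53, -1.002 and -0.70 in mutants. The difference was 0.22 (SE 0.18, 95% interval -0.22 to 0.66, limma adjusted p = 0.532), and the groups overlapped. Its other probes gave -0.13 and -0.26, so the sign depended on the probe, and with the probes averaged the difference was -0.06.

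Gabra4, the alpha 4 subunit of GABA-A receptors, varied most among the mutant arrays. Its signals were -3.65, -4.12 and -4.54 in controls and -4.69, -3.20 and -2.05 in mutants. Mutant A lay below all controls and mutants B and C above them. The difference of 0.79 (SE 0.66, 95% interval -0.82 to 2.40) was not called (limma, adjusted p = 0.541), and it was 1.02 within slide 1 and -0.36 within slide 2. It was 0.16 without mutant C and 1.48 without mutant A. The acinar list also ran from mutant A, the lowest, to mutant C, the highest. Its part in the Gabra4 values was not tested.

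**Figure D3:**
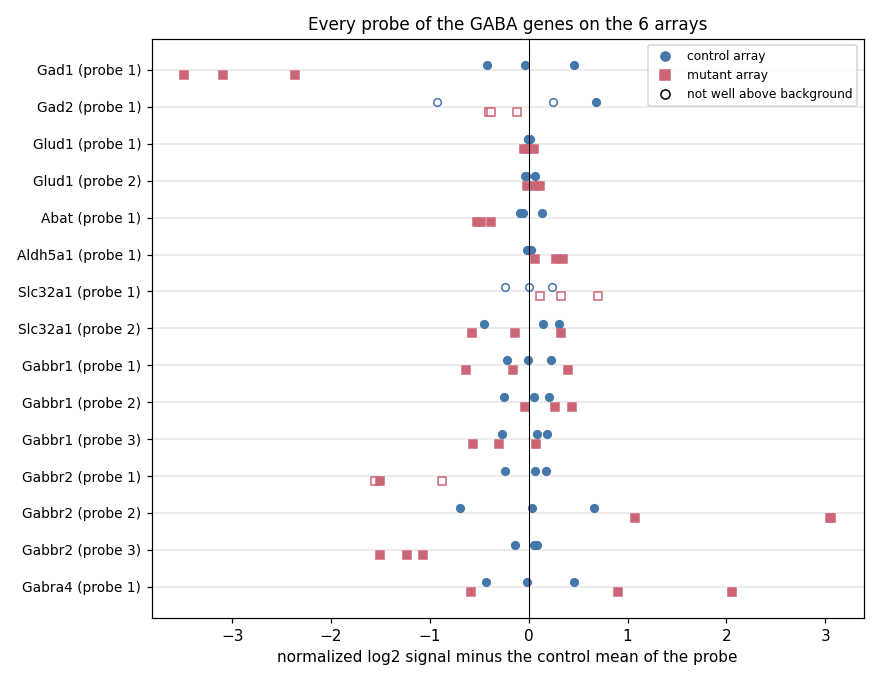
Normalized log2 signal of each of the 15 probes minus its control mean (x axis) on the 3 control arrays (circles) and 3 mutant arrays (squares). Open symbols were not well above background. The Gad1 probe lies lowest in mutants, and Gabbr2 probe 2, the junction probe, lies to the right of 0 while Gabbr2 probes 1 and 3 lie to the left.

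The wider pathway was described with 72 genes listed by role, of which 59 were tested. Of these 2 rose and 2 fell, against 1.41% and 1.12% of all genes tested. At an unadjusted p under 0.05 the count was 16 of 59, against 20.2%, and the groups did not overlap for 21 of 59, against 26.3%. These counts include Slc1a2, Slc1a3, Gabra3 and Aoc1, which passed the filter on dim signal through the arrays of a single group. Passing in that way favours genes that differ, among the pathway genes and among all genes tested alike. The median difference was 0.07, beside -0.03 over all genes.

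Maob, monoamine oxidase B, is known as an enzyme of a route to GABA from putrescine and is also an enzyme of monoamine breakdown. It had signals of 3.40, 3.42 and 3.49 in controls and 1.86, 1.87 and 1.69 in mutants. The spread within each group was small beside the gap between them. The difference of -1.63 (SE 0.10) was 3.09-fold lower in mutants (limma, adjusted p = 0.00601), and it was -1.62 and -1.59 within slides 1 and 2. Over the other settings the adjusted p ran from 0.00108 to 0.105, and the call was lost without control B (0.0596) or control C (0.0503). Of the 4 genes of such other routes, Maob fell and none rose, against 1.12% and 1.41% of all genes tested. At an unadjusted p under 0.05 in limma the count was 2 of 4, Maob and Aoc1 in opposite directions, against 20.2% of all genes. Aoc1, a diamine oxidase that is well above background on 1 control array, had a difference of 1.77 and was not called (limma, adjusted p = 0.089).

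Among the 15 genes listed for glutamate supply or use, all tested, Glul fell and Oat rose. Of all genes tested, 1.12% were called lower and 1.41% higher. At an unadjusted p under 0.05 in limma the count was 8 of 15, against 20.2% of all genes. Glul, glutamine synthetase, had signals of 3.17, 3.05 and 3.13 in controls and 2.39, 2.35 and 2.43 in mutants, a difference of -0.73 (SE 0.09, limma adjusted p = 0.0267). Oat, ornithine aminotransferase, a mitochondrial source of glutamate, had signals of -0.995, -0.991 and -1.41 in controls and 0.14, -0.26 and -0.11 in mutants, a difference of 1.05 (SE 0.17, limma adjusted p = 0.0433). Neither gene had overlapping groups, which was also the case for 26.3% of all genes tested. A block on the slide left Oat uncalled (adjusted p = 0.0641, with 0.0222 to 0.182 over its settings other than single arrays left out). Oat lost its call without any single array (adjusted p = 0.063 to 0.149), and Glul lost it without each array but control A (0.0591 to 0.143). Without a filter on dim probes neither was called (adjusted p = 0.0509 for Glul and 0.0688 for Oat), and over settings other than single arrays left out the adjusted p of Glul ran from 0.00777 to 0.195.

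Of the glutamate transporters of the plasma membrane, Slc1a1 and Slc1a3 had large differences that were not called. Slc1a1, Slc1a2 and Slc1a3 are named here after their values were seen. Slc1a1 had signals of -4.10, -4.29 and -5.73 in controls and -2.70, -1.68 and -2.44 in mutants, a difference of 2.43 (limma, adjusted p = 0.0675). Slc1a3 was well above background on no control array and passed the filter through the mutant arrays alone, which favours a difference. Its difference is a bound of at least 9.02-fold higher in mutants (limma, adjusted p = 0.0671), with measured means of -7.62 and -3.83. Slc1a2 was well above background on all control arrays and on no mutant array at its tested probe, so no fold is given, and it was not called (limma, adjusted p = 0.126). Its other 2 probes did not pass the filter on dim signal, and their differences had the opposite sign.

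Of 17 GABA-A receptor subunits listed beside Gabra4, 9 were tested and none was called. At an unadjusted p under 0.05 in limma the count was 2 of 9, against 20.2% of all genes. Gabra3, the alpha 3 subunit, had signals of -6.93, -6.25 and -6.98 in controls and -5.53, -4.76 and -5.17 in mutants. All mutant arrays lay above all controls, of which 1 was well above background at this probe. The difference of 1.57 (SE 0.28, 95% interval 0.89 to 2.24) was not called (limma, adjusted p = 0.0501, and 0.0496 to 0.181 over its other settings), and it was 1.96 and 1.08 within slides 1 and 2. Its size depended on the background correction, with 0.63 after normexp and 0.59 in the deposited equalized values.

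Of 12 receptor partners, 11 were tested and 1 rose, against 1.41% of all genes tested. At an unadjusted p under 0.05 in limma the count was 2 of 11, against 20.2% of all genes. Kctd12, an auxiliary subunit of GABA-B receptors, had signals of 0.39, 0.23 and 0.16 in controls and 1.19, 1.71 and 1.38 in mutants. All mutant arrays lay above all controls. The difference was 1.16 (SE 0.16), 2.24-fold higher in mutants (limma, adjusted p = 0.0308). The call held without mutant A (adjusted p = 0.0437) and was lost without control A (0.0514), control B (0.13), control C (0.146), mutant B (0.0976) or mutant C (0.0815). Its relative Kctd8, named after its values were seen, had a difference of 1.14 (limma, adjusted p = 0.0529).

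The remaining lists held no called gene. Of 4 plasma membrane GABA transporters 2 were tested, and the larger difference was that of Slc6a12, -0.26 (limma, adjusted p = 0.692), well above background on 1 mutant array, with none at an unadjusted p under 0.05. Of 5 genes of decarboxylase relatives and vitamin B6 supply 4 were tested, led by Csad, the cysteine sulfinate decarboxylase, at 0.31 (adjusted p = 0.279), with none at that p in limma. All 7 genes of the citric acid cycle steps around the exit of the breakdown route were tested, with differences of -0.18 (Dlst) to 0.16 and none at that p in limma. Of 6 genes of release channels 5 were tested, and 2 had an unadjusted p under 0.05 in limma, against 20.2% of all genes. Lrrc8b, a subunit of volume-regulated anion channels, led the 5 at 0.75 (adjusted p = 0.0548, and 0.0418 to 0.218 over settings other than single arrays left out). The probes of Lrrc8a and Lrrc8e, named after their values were seen, disagreed. Lrrc8a had 0.05 at its brighter probe and -0.63 at its other tested probe, and Lrrc8e had -0.47 and 0.07. The 2 chloride transporters were tested, and neither had such a p in limma. Slc12a2, which imports chloride, had the larger difference, 0.36 (adjusted p = 0.392). Slc12a5, which exports it from neurons, had -0.06 at its brighter probe and 0.93 at its other tested probe, so its probes disagreed.

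**Figure D4:**
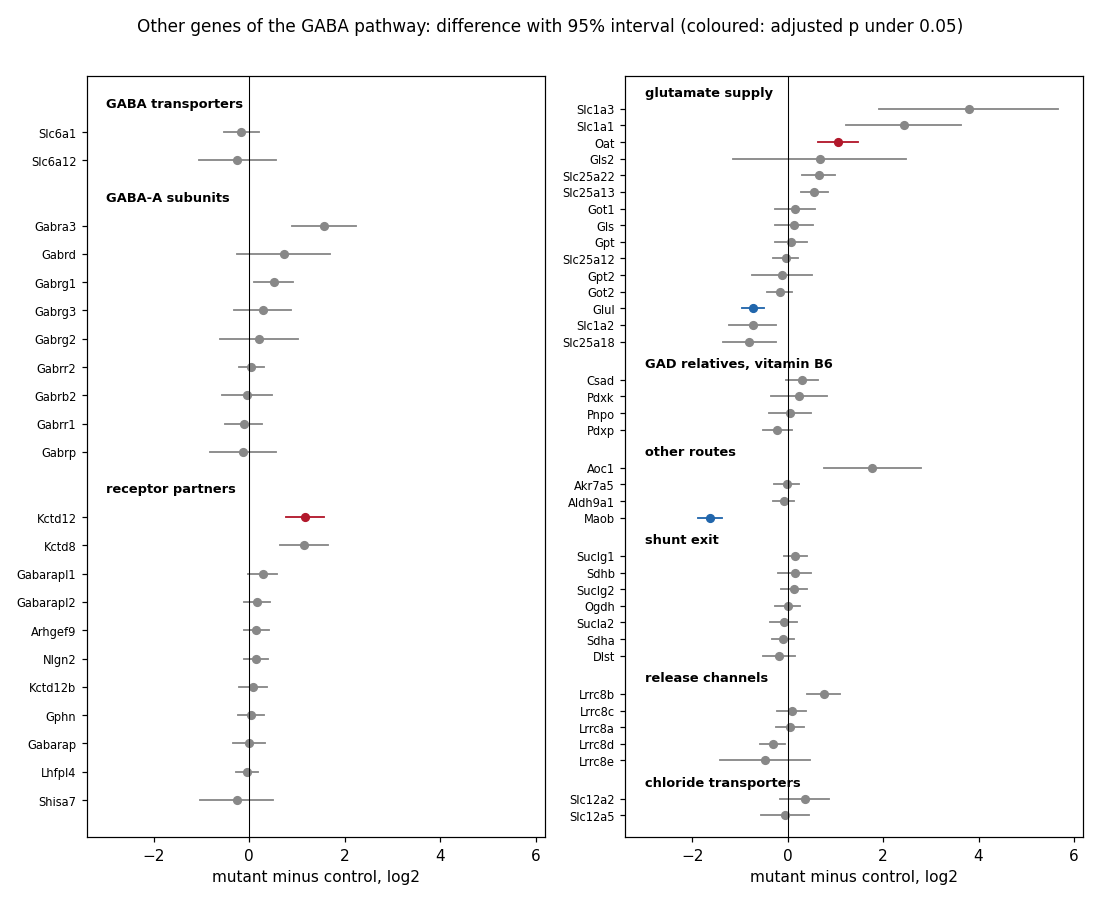
Mutant minus control difference in log2 (x axis) with its 95% interval from limma for the 59 tested pathway genes, grouped by role. Coloured points passed an adjusted p under 0.05, higher in red (Kctd12 and Oat) and lower in blue (Glul and Maob), and grey points did not.

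The genes whose pattern over the 6 arrays was most like that of Gad1 were found by Pearson correlation among 1097 other genes with a difference of at least 1 in log2. They were Vdr (r = 0.996), Dlgap1, Angptl7, Gm2430 and Atp4a (r = 0.995). Vdr, the vitamin D receptor, had signals of 3.31, 3.58 and 3.53 in controls and 2.46, 2.07 and 2.03 in mutants. Atp4a, the catalytic subunit of the gastric proton pump, had -3.12, -2.30 and -2.83 in controls and -4.41, -4.92 and -4.94 in mutants. All 5 were lower in mutants, with differences of -1.29 (Vdr) to -3.60 (Angptl7). That direction follows from choosing genes by their correlation with Gad1, which was chosen for its fall. The 6 arrays are the same for all, so r is a description.

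The sequences before the RefSeq start sites of Gad1 and Gabbr2 are shown because both genes were lower at the probes named above. The part of these sequences in the differences was not tested. Promoter sequence matched 8 of the 9 genes in RefSeq (GRCm38.p6). The 250 bases before the start of Gad1, chr2:70561879-70562128 on the plus strand, held 58.0% G and C, and those of Gabbr2, chr4:46991715-46991964 on the minus strand, 80.8%, against a median of 52.4% over all promoters. The homeodomain core TAAT, whose reverse complement is ATTA, was searched on both strands and is in capitals. It occurs in 54.9% of 32851 promoters of this length, so a match is common, and a longer form TTAAT occurs in 24.9%. Gad1 held 2 TAAT sites and no TTAAT, Aldh5a1 held 1 of each, and the others held none in this window.
Gad1 promoter: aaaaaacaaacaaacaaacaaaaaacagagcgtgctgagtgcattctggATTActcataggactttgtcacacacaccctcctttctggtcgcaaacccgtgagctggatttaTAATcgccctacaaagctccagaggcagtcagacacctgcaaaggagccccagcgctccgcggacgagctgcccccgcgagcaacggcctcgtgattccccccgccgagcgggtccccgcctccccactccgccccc
Gabbr2 promoter: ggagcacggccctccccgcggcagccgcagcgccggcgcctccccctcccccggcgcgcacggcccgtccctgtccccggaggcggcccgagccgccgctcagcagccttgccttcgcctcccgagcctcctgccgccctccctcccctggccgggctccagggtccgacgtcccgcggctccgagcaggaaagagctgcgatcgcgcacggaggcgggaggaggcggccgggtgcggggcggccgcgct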

How the data were processed

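The authors' scanner files (Agilent Feature Extraction 10.7.3.1, mm9, per the file headers) hold spot intensities corrected for background, and flags (other values) for signal well above background. A deposited table of intensities that had been equalized across arrays, in a way not given in the sources used here, was an alternative. The log2 intensities were averaged over the spots of a probe and scaled by subtracting the 75th percentile of that array. Of 39429 probes, 28361 passed the filter on dim signal, and the brightest of these stood for its gene. The comparison used limma (version 3.58.1, R 4.3.3, two-sided, Benjamini-Hochberg), tested on simulated data. Arrays give no depth, and their number limits the precision. The labels name no statistical method.

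The 9 genes and the lists were chosen with earlier results of these data known. Named genes are the 9, Nkx6-1, called pathway genes, the largest difference of a list with no call, the 5 most like Gad1 and cell type markers. Not all are given: 1 gene that stood in the pathway lists was taken out of them and their counts, and it and some probe sequences are not reported here. Whether letters A to C pair the arrays is not given by the labels. Deviations correlated at -0.23, -0.19 and -0.031 between arrays of the same letter, which never shared a slide. Between the 4 pairs on the same slide they correlated at 0.084 to 0.23. The same letter always meant different slides, so these values cannot show whether the letters pair the arrays. A block on the letters was an alternative.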

Additional observations from a re-analysis of the deposited data

How the results depend on the processing

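The Gad1 difference kept its sign in all settings run, from -3.49 without mutant arrays A and B to -2.72 with slide as a block, and lay between -3.29 and -2.73 with single arrays left out. Of the GABA genes other than Gad1, 1 was called, and 0 were called with the probes of a gene averaged. Of the pathway genes 2 were called higher and 2 lower. The higher count was 5 with normexp correction, 7 in the deposited equalized values, 4 where signal was required on all 6 arrays, 1 with a slide block and 7 under robust estimation with a variance trend, and the lower count was 1 without a filter on dim probes, where 99 of all genes were called lower. With the replicate block on the letters, limma called 0 of the GABA genes other than Gad1, 0 pathway genes higher, 0 lower and 0 of all genes in either direction (3163 of all genes, 2 of the GABA genes and 15 pathway genes at an unadjusted p under 0.05). Without mutant arrays A and B, a choice made after seeing the data, all these counts were 0 too (3864, 3 and 15 at that p).

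With single arrays left out, the GABA genes called numbered 0 to 1, pathway genes 0 to 1 higher and 0 to 2 lower, and all genes 13 to 418, of which 8 to 232 higher and 5 to 186 lower. The count of all genes was 418, 13 and 21 with control A, B or C left out and 283, 20 and 72 with mutant A, B or C left out. Of the 13 tested probes of the GABA genes, that of Gad1 was left out of the count. Among the rest 2 were called, against 2.75% of all tested probes. In settings chosen after seeing the data the count was 1 with normexp correction, quantile normalization, the deposited equalized values or a slide block, 0 with the replicate block, and 0 to 2 with single arrays left out.

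Slc32a1 turned to 0.038 with normexp correction, 0.062 in the deposited equalized values, 0.096 with a slide block and 0.025 and 0.091 without control C and mutant B, in a range of -0.36 to 0.091 with single arrays left out. Slc6a12 turned to 0.10 with normexp correction, 0.0042 without mutant B (-0.62 to 0.0042 with single arrays left out) and 0.48 without mutant arrays A and B, and Gabbr1 turned to -0.058 with its probes averaged. None of these was called, and the cause was not tested. Signal over background limits, among others, Gad2, Slc1a2, Slc1a3, Slc6a12, Aoc1, Gabra3 and the neighbouring Gabbr2 probe.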

Other observations

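Of 10 probes that hold the GAA run on the opposite strand 6 were tested. Their median difference was -0.30, with 1 of 6 above 0, and the median was 0.07 within slide 1 and -0.30 within slide 2. A difference from the probes with the run on the probe strand was not tested. Of 4664 genes with 2 or more tested probes, 4 had 1 probe at least 2-fold lower and another at least 2-fold higher in mutants. Gabbr2 was the only one of the 4 with a GAA run in a probe.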
